A study of Homo sapiens with 8 samples.

Results

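The comparison set 2 ATAC-seq libraries of a HEK293T line carrying EZH2 H689A/F667I against 2 libraries of a HEK293T line carrying EZH2 WT. It asked which open regions were present in one line and absent from the other. HEK293T, derived from human embryonic kidney, is widely used for the introduction of genes. According to the study's methods, each line was made by lentiviral infection of HEK293T with an EZH2 construct and by blasticidin selection meant to give a monoclonal population. Both lines therefore carry an introduced EZH2, the sources used here describe no removal of the cells' own EZH2, and each genotype is 1 line. The study calls H689A/F667I a loss-of-function mutant, and the other mutants of the series, Y641F and A677G, gain-of-function mutants. Replicates were independent biological replicates of the same line, so their spread says nothing about other lines. The comparison used 4 of the 8 libraries of the series.

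Peaks of the 4 libraries on chromosomes 1 to 22 that shared at least 1 bp were merged, which gave 86058 regions, against 98302 when all 8 libraries were merged. A gained region had a peak in both H689A/F667I libraries and in neither WT library. A lost region had a peak in both WT libraries and in neither H689A/F667I library, and a kept region had a peak in all 4. These rules gave 662 gained regions (0.769% of the merged regions), 6619 lost regions (7.69%) and 32019 kept regions (37.2%). A region without a called peak is described here as closed, which does not mean that it had no reads. These classes were chosen by the presence of peaks, so the class sizes and the peak strengths in the libraries that define them are descriptions without a test.

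EZH2 is the catalytic subunit of Polycomb repressive complex 2 (PRC2), which places methyl groups on lysine 27 of histone H3. The trimethylated form, H3K27me3, marks silenced developmental genes such as the HOX clusters, and chromatin that carries it is often compact. H689 and F667 lie in the catalytic SET domain. ATAC-seq reads open chromatin through the sites at which the Tn5 transposase can insert, and each deposited peak has a fold, the ratio of its read pileup to the local background given by MACS2.

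The genome sequence under the strongest gained regions is shown first, because these were the regions with a peak in both H689A/F667I libraries and none in WT. The first 3 are the gained promoter regions of highest fold percentile, and the next 3 the gained regions of highest fold percentile outside promoters. Each is the plus strand of hg38, whole or, above 300 bp, its central 300 bp. Capitals mark matches, on either strand, to the short motifs described with the sequence composition.
C1orf116 promoter, chr1:207032728-207033027: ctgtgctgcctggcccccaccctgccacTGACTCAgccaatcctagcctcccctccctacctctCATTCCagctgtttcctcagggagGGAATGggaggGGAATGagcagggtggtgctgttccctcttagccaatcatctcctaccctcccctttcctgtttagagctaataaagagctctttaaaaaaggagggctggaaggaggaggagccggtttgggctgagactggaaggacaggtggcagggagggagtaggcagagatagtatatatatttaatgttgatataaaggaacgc
RASA4 promoter, chr7:102612038-102612295: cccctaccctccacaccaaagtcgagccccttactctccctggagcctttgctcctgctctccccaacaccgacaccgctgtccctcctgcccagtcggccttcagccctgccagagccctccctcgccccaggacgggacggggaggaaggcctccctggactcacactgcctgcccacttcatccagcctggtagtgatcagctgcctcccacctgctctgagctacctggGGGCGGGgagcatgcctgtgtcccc
UTS2B promoter, chr3:191282963-191283187: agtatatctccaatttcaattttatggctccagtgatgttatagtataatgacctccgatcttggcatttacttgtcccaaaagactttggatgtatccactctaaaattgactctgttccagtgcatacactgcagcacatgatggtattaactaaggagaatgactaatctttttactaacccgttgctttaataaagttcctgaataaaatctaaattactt
intergenic, nearest to GNGT2, chr17:49180409-49180684: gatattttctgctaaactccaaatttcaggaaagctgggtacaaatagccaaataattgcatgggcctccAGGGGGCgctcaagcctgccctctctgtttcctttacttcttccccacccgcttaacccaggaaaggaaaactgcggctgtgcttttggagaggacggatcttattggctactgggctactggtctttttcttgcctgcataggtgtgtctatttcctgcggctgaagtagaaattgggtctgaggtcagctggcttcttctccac
PARD3 intron, chr10:34113650-34113878: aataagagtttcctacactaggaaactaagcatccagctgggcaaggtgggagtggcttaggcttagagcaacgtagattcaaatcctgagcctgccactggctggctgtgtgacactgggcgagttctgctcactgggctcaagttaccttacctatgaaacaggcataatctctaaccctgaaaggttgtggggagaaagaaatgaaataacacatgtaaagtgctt
AFF3 intron, chr2:100017703-100018002: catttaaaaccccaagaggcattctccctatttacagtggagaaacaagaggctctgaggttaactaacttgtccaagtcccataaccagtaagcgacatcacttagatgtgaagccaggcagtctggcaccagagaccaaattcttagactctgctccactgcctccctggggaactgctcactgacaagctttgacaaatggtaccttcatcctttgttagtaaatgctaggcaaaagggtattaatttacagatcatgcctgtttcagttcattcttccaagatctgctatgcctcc

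The C1orf116 promoter window held an AP-1 match and 3 TEAD matches, the RASA4 window an SP/KLF match, and the region near GNGT2 a match to the core of the CTCF motif. The UTS2B, PARD3 and AFF3 windows held none of the motifs searched. GC content ran from 34.2% at UTS2B to 66.7% at RASA4.

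The H689A/F667I libraries had fewer peaks than the WT libraries. On chromosomes 1 to 22 the WT libraries had 62739 and 60420 peaks, and the H689A/F667I libraries 46317 and 47164. The mean was 61579.5 ± 1640 in WT and 46740.5 ± 599 in H689A/F667I (SD, n = 2 each), a log2 difference of -0.40. Covered length was 40.5 ± 0.838 Mb in WT and 29.0 ± 0.454 Mb in H689A/F667I (SD, n = 2 each), a log2 difference of -0.48. The groups did not overlap in either measure, and the exact two-sided permutation test gave p = 0.333 for both, the smallest value that 2 against 2 libraries allow. Median fold was 3.71 and 3.77 in WT and 3.75 and 3.74 in H689A/F667I. The read depth is unknown, so peak number cannot be told apart from sequencing depth or library quality. Promoters of 8 of 8 HEK293T-like markers, among them PAX2, SIX2 and NEFM, were open in all 4 libraries, and promoters of 5 of 5 blood cell markers were closed in all 4. Of 5 fibroblast markers COL1A1 was open in all 4 and LUM, a matrix proteoglycan, was lost (4.2 and 3.6 in the WT replicates). Of 4 endothelial markers KDR was open in all 4 and the others were closed.

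Because peak number differed, the classes were built again from the peaks with the highest −log10 p in each file, at the same number per file, which was just under the size of the smaller H689A/F667I list. This equal-number setting left 46193 and 46207 peaks on chromosomes 1 to 22 in WT and 46265 and 46226 in H689A/F667I. The −log10 p of the last peak inside and the first peak outside this limit was 4.34 in WT replicate 1, 4.26 in WT replicate 2, 3.1 in H689A/F667I replicate 1 and 3.31 in H689A/F667I replicate 2. Of 69380 merged regions, 1812 were then gained (2.61%), 3055 lost (4.4%) and 29369 kept (42.3%). Regions gained in both settings numbered 625, which is 94.4% of the 662 and 34.5% of the 1812. Of the 1812 regions, 1187 (65.5%) had a weaker peak in at least 1 WT library and 535 (29.5%) in both. The larger gained class was therefore made mostly of regions that were also called in WT at lower rank. Regions lost in both settings numbered 3021, which is 45.6% of the 6619 and 98.9% of the 3055. The 94.4% and the 98.9% follow largely from the construction, since the limit removed few H689A/F667I peaks.

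**Figure D1:**
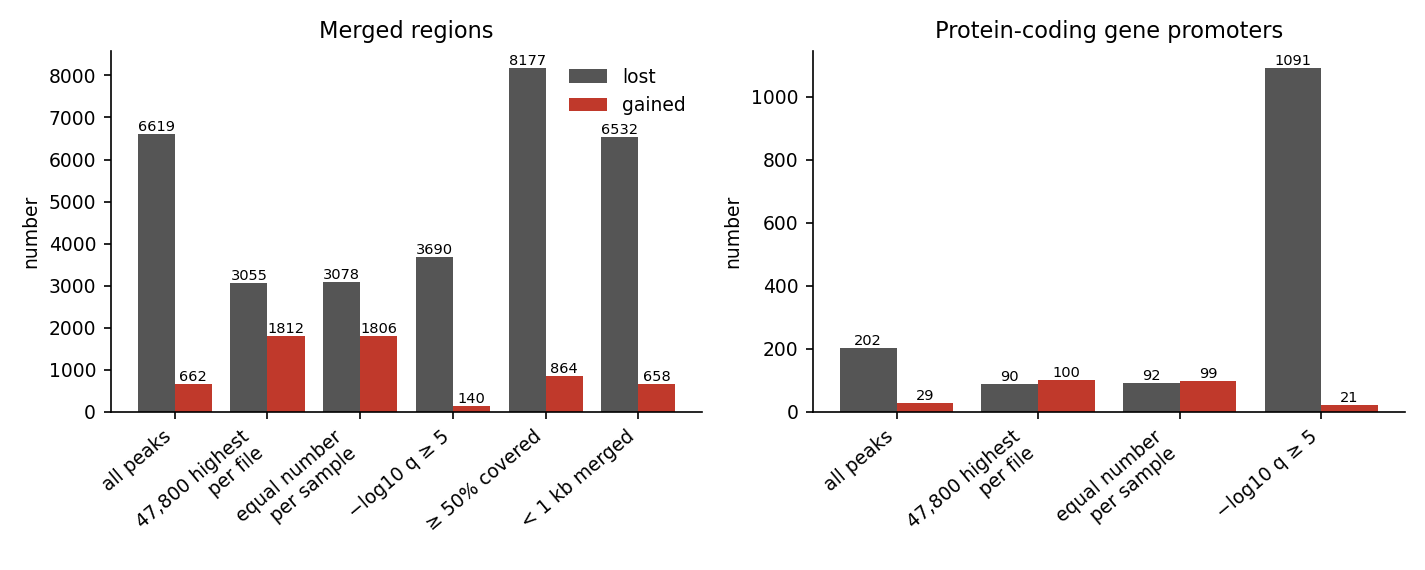
Number of lost (grey) and gained (red) regions, left, and of protein-coding genes with a lost or gained promoter, right, under each way of choosing peaks. With all peaks 6619 regions were lost and 662 gained, and with the same number of highest peaks from each file 3055 and 1812. In that setting 100 gene promoters were gained and 90 lost.

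Gained regions were weak by the measures of their own lists. Their median fold was 3.29 and 3.25 in the H689A/F667I replicates, with highest values of 5.76 and 5.54. Their median −log10 p was 4.11 and 4.13, and their median percentile of fold within the whole list was 26.9 and 25.6. Lost regions had a median fold of 3.46 and 3.50 in the WT replicates. A further 1685 merged regions were open in both H689A/F667I libraries and 1 WT library, and 9973 in 1 H689A/F667I library alone.

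Most gained regions lay away from promoters. A promoter region was one within 1 kb of an annotated start of a protein-coding gene in GENCODE 44. Of the 662 gained regions, 39 were promoter regions (5.89%, 95% Wilson interval 4.34 to 7.95), 29 exonic, 305 intronic (46.1%) and 289 intergenic (43.7%). The promoter share of lost regions was also 5.89% (5.35 to 6.49), while that of kept regions was 39.4% (38.8 to 39.9). Intervals cover counting error only. The 39 gained promoter regions were 0.253% of 15442 merged promoter regions, and the 390 lost ones 2.53%. Median distance to the nearest protein-coding start was 31635 bp for gained, 35041 bp for lost and 7662 bp for kept regions, and 22734 bp for all merged regions. Regions outside promoters but within 1 kb of a start of a long non-coding RNA numbered 31 of the 623 gained regions outside promoters. Over all merged regions they numbered 3501 of the 70616 outside promoters.

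The highest gained promoter region lay at C1orf116, which encodes an androgen-regulated protein. It spanned chr1:207032724-207033031 over the annotated start, with a fold of 4.54 and 5.24 in the H689A/F667I replicates. It was closed in both WT libraries, and replicate 2 of Y641F and of A677G had weaker peaks there with folds of 2.86 and 2.96. RASA4, a GTPase-activating protein for Ras, followed at chr7:102612038-102612295 with folds of 4.41 and 4.42, and A677G replicate 1 reached 5.01. RASA4 has near-identical copies on chromosome 7, so the placement of reads there is uncertain. UTS2B, the gene of the urotensin 2B peptide, had folds of 4.56 and 3.29 at chr3:191282963-191283187, and 3 of the 4 Y641F and A677G libraries also had a peak.

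The other named promoter regions had mean percentiles of fold below 50. ACSM3, a mitochondrial acyl-CoA synthetase for medium-chain fatty acids, had folds of 3.37 and 4.16 at chr16:20763589-20764109, with no peak in any of the other 6 libraries. STIM2, a sensor of calcium in the endoplasmic reticulum, had 3.84 and 3.12, and MARCHF10, a ubiquitin ligase of the MARCH family, 3.20 and 3.39. Both were closed in the Y641F and A677G libraries. GRAMD1C, a sterol transfer protein, had 3.12 and 3.79, and was open in 3 of the 4 Y641F and A677G libraries. STIM2, GRAMD1C, MARCHF10, UTS2B and RASA4 did not have a gained promoter when all annotated starts of the gene were counted. At these genes the region was gained and the promoter as a whole was not.

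Counted by gene, a promoter was open in a library when a peak lay within 1 kb of any annotated start. Of 18765 protein-coding genes, 29 had a gained promoter (0.155%) and 202 a lost one (1.08%), while 12769 were open in all 4 libraries and 4573 closed in all 4. The 29 genes came from many kinds of function. In the equal-number setting, 26 of the 29 were again gained, which follows largely from the construction, since few H689A/F667I peaks were removed. Among the exceptions, DNAJA4 and IL16 were then open in some libraries of the 4 only.

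Genes of secreted signals and their receptors stood among the 29. TAC3, the precursor of neurokinin B, had promoter folds of 3.13 and 3.54 in the H689A/F667I replicates. MSTN, which encodes myostatin, a TGF-beta family ligand that restrains muscle growth, had 3.13 and 3.25. The cytokine gene IL16 had 3.50 and 2.97. Among receptors, ENG, a co-receptor for TGF-beta ligands, had 2.95 and 3.38, and GPBAR1, the membrane receptor for bile acids, had 2.64 and 2.40. By the rule, WT had no peak at the promoters of these 5 genes. ENG and GPBAR1 were closed in all 4 Y641F and A677G libraries, and TAC3 was open in both Y641F libraries.

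Transcription factors among the 29 included ASCL2 and CRX. ASCL2, a basic helix-loop-helix factor of trophoblast and intestinal stem cells, had folds of 3.71 and 3.29, and A677G replicate 1 had 3.64. CRX, the cone-rod homeobox factor of photoreceptors, and its neighbour TPRX1 shared 1 gained region on chromosome 19 with folds of 2.95 and 3.40. No other library had a peak there.

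Metabolic enzymes and transporters made up another group. BAAT, which joins bile acids to glycine or taurine, had folds of 3.03 and 3.65, and no other library had a peak at its promoter. SARDH, a mitochondrial sarcosine dehydrogenase, had 3.71 and 2.83. LTC4S, the synthase of leukotriene C4, had 2.76 and 2.45, and NMRK2, a nicotinamide riboside kinase, 2.87 and 2.78. Of 326 solute carriers, 3 had a gained promoter and 3 a lost one (0.92% each, beside 0.155% and 1.08% over all genes). The gained ones were SLC6A13, a GABA transporter (3.09 and 3.44), SLC25A18, a mitochondrial glutamate carrier (3.49 and 3.03), and SLC10A6, a carrier of steroid sulfates (3.17 and 2.93). The lost ones were SLC16A5, SLC24A3 and SLC4A10.

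HFE, a regulator of iron uptake, had folds of 3.46 and 3.07, and DSC1, a desmosomal cadherin, 3.05 and 3.34. PYCARD, the adaptor of inflammasomes, was the only one of the 29 open in all 4 Y641F and A677G libraries, with folds of 2.03 and 2.08 in H689A/F667I and 2.09 to 2.63 in the other mutants. It was thus open in all 6 mutant libraries and in neither WT library, and its folds lay below the medians of the gained regions. Further gained promoters were those of CCDC185, DNAJA4, PLCH2, PPP1R32, RBP7, SEPTIN12, SMIM22 and WDR86, with folds of 2.55 to 3.19.

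**Figure D2:**
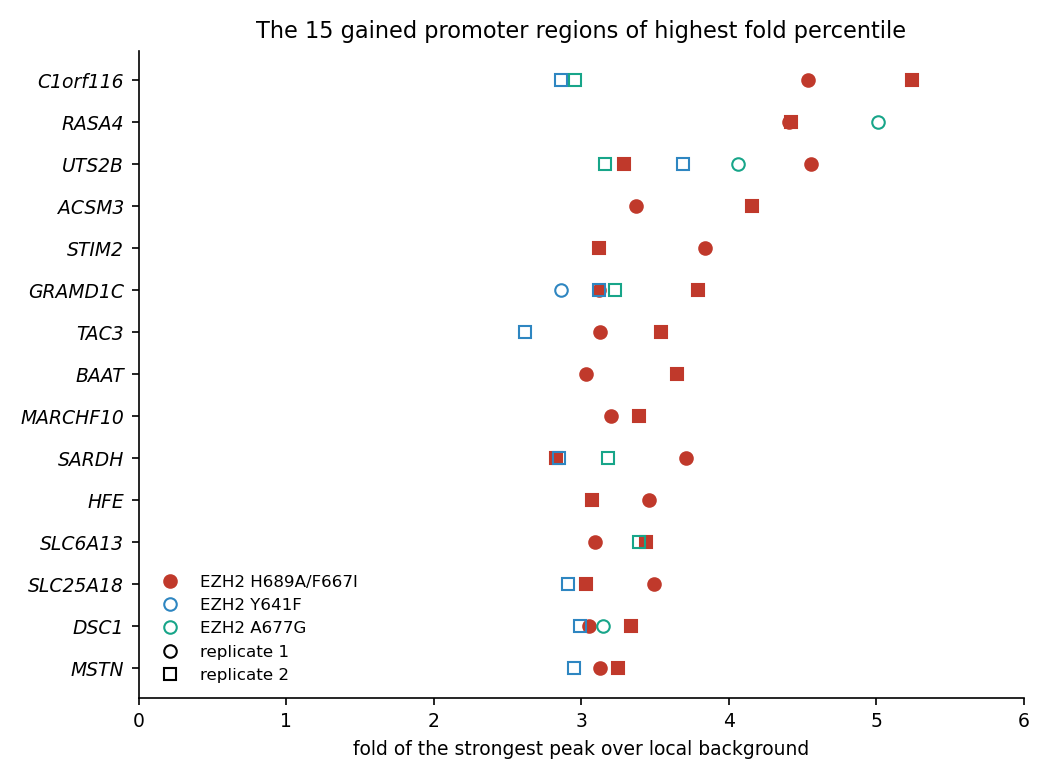
Fold of the strongest peak in each library for the 15 gained promoter regions of highest fold percentile. Filled red points are the H689A/F667I libraries and open points the Y641F (blue) and A677G (green) libraries that had a peak, with circles for replicate 1 and squares for replicate 2. No WT library had a peak in these regions, so none is drawn, and C1orf116 lies highest at 4.54 and 5.24.

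Outside promoters, the strongest gained region was intergenic, at chr17:49180409-49180684, 28228 bp from the nearest protein-coding start, that of GNGT2. Its folds were 5.76 and 5.47, at a mean percentile of 94.5 within the H689A/F667I lists, and no other library had a peak. An intron of PARD3, a cell polarity gene, followed with 4.29 and 5.54, and an intron of AFF3, a gene of the AF4 transcription factor family, with 4.41 and 5.14. Intergenic regions nearest to INSC (4.31 and 5.21) and TREH (4.78 and 4.44) and an intron of RMDN2 (4.71 and 4.31) came next. None of these 6 regions had a peak in any Y641F or A677G library. Regions nearest to SPRED2, PPARD and FBL and an intron of VTI1A, with folds of 4.00 to 5.27, had a peak in 1 to 3 of those libraries.

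Of the 662 gained regions, 341 were gained in the equal-number setting too and had no peak in any Y641F or A677G library, and 21 of these were promoter regions. Most gained regions meet the first of these conditions by construction. The strongest of the 341 were the 6 just named, followed by regions near SCYGR8 (4.34 and 4.50), in an intron of GRIK2, a kainate receptor subunit (4.66 and 3.95), and near DHX35 (4.41 and 4.11) and CDH6 (4.59 and 3.98). The region nearest to CDH6 lay 1397417 bp from its start.

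Several gained regions in 1 gene were rare. Gained regions touched the bodies of 361 protein-coding genes, of which 15 had 2 and 2 had 3 or more. PCDH9, a protocadherin gene of 928 kb on chromosome 13, held 4 gained regions among 108 merged regions, with folds of 2.71 to 3.77, and also 6 lost and 27 kept regions. RBM20, a splicing regulator, held 3 gained regions among 20, with folds of 2.84 to 3.66. EZH2 itself (chr7:148807257-148884321) held 1 gained region in an intron, at chr7:148864387-148865189, with folds of 3.12 and 3.22 and no peak in any of the other 6 libraries. Its promoter was kept, with folds of 3.58 and 3.90 in WT and 3.56 and 3.81 in H689A/F667I.

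The Y641F and A677G libraries did not enter the rules, so the state of each class in them is an independent readout. Of the gained regions, 369 (55.7%) had no peak in any of these 4 libraries, 171 (25.8%) had a peak in 1, 85 (12.8%) in 2, 27 (4.08%) in 3 and 10 (1.51%) in all 4. Lost regions were distributed much alike, with 61.7% closed in all 4 and 0.453% open in all 4. Kept regions were open in all 4 in 56.6% of cases and closed in all 4 in 3.84%. A peak was present at gained regions in 8.91% to 24.0% of cases per library, and at lost regions in 4.67% to 23.3%. The share rose with the number of peaks in the library, from Y641F replicate 1 with 25423 peaks to A677G replicate 2 with 44754. No test was made, since regions of 1 library are not replicates.

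**Figure D3:**
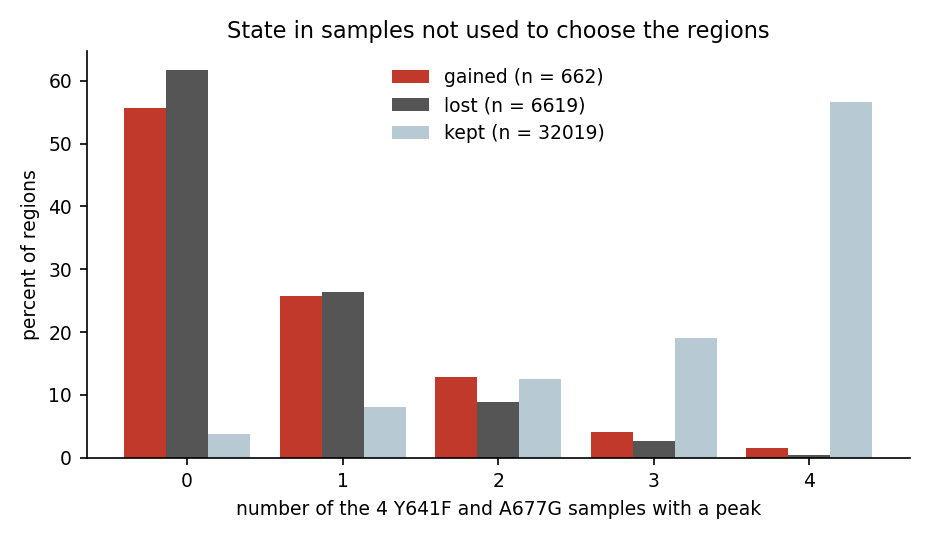
Percent of gained (red), lost (dark grey) and kept (light) regions by how many of the 4 Y641F and A677G libraries had a peak there. Gained and lost regions were closed in all 4 libraries in 55.7% and 61.7% of cases, and kept regions open in all 4 in 56.6%.

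The share of gained regions varied between chromosomes. The share of merged regions that were gained was highest on chromosome 13, with 44 of 3394 (1.3%, Wilson interval 0.967 to 1.74), and lowest on chromosome 14, with 9 of 2524 (0.357%, 0.188 to 0.676). In the equal-number setting chromosome 13 was again highest, at 4.7%. On chromosome 13, 40 of the 44 gained regions lay between 63 and 95 Mb, a stretch chosen after the values were seen. There 2.01% of 1989 merged regions were gained, against 0.285% in the rest of chromosome 13 and 0.74% of the merged regions outside the stretch. Of the 40, 29 were intergenic and 4 lay in PCDH9, and the nearest genes included members of the SLITRK family of neuronal adhesion genes and the glypicans GPC5 and GPC6. A peak in at least 1 Y641F or A677G library was present at 60.0% of the 40 and at 43.2% of the other 622. The stretch held 1.82% and 1.72% of the peaks of the WT libraries and 1.82% and 1.81% of those of the H689A/F667I libraries. The lost share of lost and kept regions was also highest on chromosome 13, at 24.9% against 17.1% over all chromosomes. Within the stretch it was 22.7%, below that of the whole chromosome. Whether copy number differed there between the lines was not tested.

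**Figure D4:**
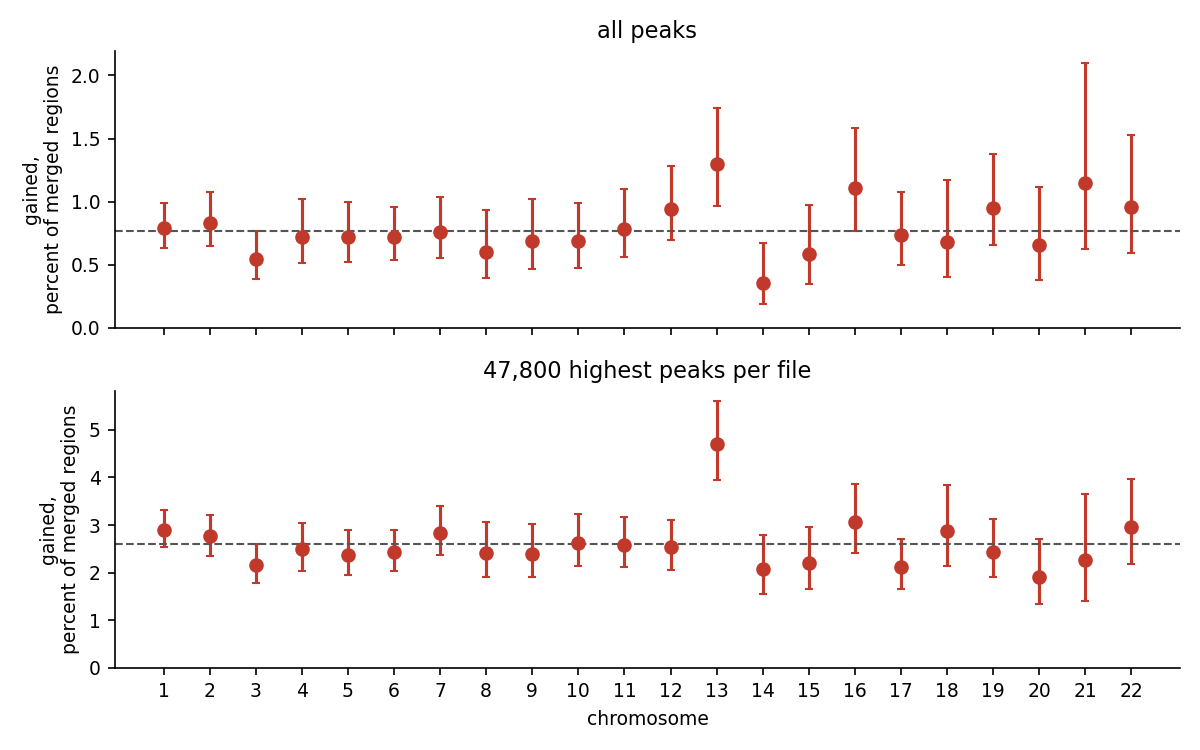
Gained regions as a percent of the merged regions of each chromosome, with all peaks (top) and in the equal-number setting (bottom). Bars are 95% Wilson intervals and the dashed line is the share over all chromosomes, 0.769% and 2.61%. Chromosome 13 lies highest in both, at 1.3% and 4.7%.

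The sequence of gained regions was compared in the central 300 bp. Median GC content was 49.7% in gained, 46.3% in lost, 56.7% in kept and 50% in all merged regions. Outside promoters the medians were 49.3% in gained, 46.0% in lost and 48.0% in all merged regions. At least 10 CpG dinucleotides were present in 11.3% of gained windows, 11% of lost and 50.1% of kept windows. Motifs were searched as plain letters on both strands, and a match is neither a bound site nor a cause. The AP-1 letters TGANTCA occurred in 9.82% of gained windows, 14.5% of lost and 10.9% of all merged windows. The TEAD letters GGAATG occurred in 15.6%, 19.3% and 16.4%, and the CTCF core letters AGGGGGC in 7.7%, 9.05% and 10.5%. The GATA letters AGATAAG occurred in 6.34% of gained, 5.27% of lost and 4.69% of all windows, and the octamer ATGCAAAT in 2.27%, 1.62% and 1.39%. SP/KLF letters, GGGCGGG, occurred in 6.5% of gained, 5.18% of lost and 23.5% of kept windows. Outside promoters they occurred in 5.46% of gained, 3.82% of lost, 9.82% of kept and 5.45% of all merged windows. The other motifs were CRE (TGACGTCA), forkhead (TGTTTAC), NRF1 (GCGCATG), ETS (CCGGAAG), YY1 (AAGATGG), RUNX (TGTGGTT), homeodomain (TAATTA) and ZIC (CAGCAGG), for 14 in all, and none of them contains another. The forkhead letters occurred in 6.19% of gained and 5.02% of all windows, RUNX in 6.19% and 5.25%, homeodomain in 7.7% and 6.22%, and ZIC in 16.9% and 14.8%. CRE occurred in 0.151% and 0.437%, NRF1 in 0.755% and 1.64%, ETS in 1.66% and 3.14%, and YY1 in 3.02% and 4.99%. These motif shares cover all locations, and promoter content differed between the classes. Outside promoters, gained and all merged windows held CRE in 0.161% and 0.252%, NRF1 in 0.803% and 1.14%, and ETS in 1.44% and 1.58%. YY1 was then at 3.05% and 4.96%, and the CTCF core at 6.74% and 8.99%.

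The fixed gene lists were read against the shares over all genes, 0.155% gained and 1.08% lost. At the gained share, the absence of gained promoters from lists of these sizes says nothing about the lists. All 13 PRC2 genes listed, among them EED, SUZ12 and JARID2, were open in all 4 libraries. So were the 11 genes that the study's text names for this line, among them EGFR, DNMT3A and PIM1. Of 39 HOX genes 24 were open in all 4, none was gained, and HOXB2 and HOXC11 were lost. Their folds in the WT replicates were 3.02 and 2.84 for HOXB2 and 2.78 and 2.79 for HOXC11. Of 148 homeodomain and paired factors outside HOX, a list that does not hold CRX or TPRX1, 100 were open in all 4, none was gained, and PAX8 and PROX2 were lost. Of 49 forkhead genes none was gained and FOXC1 was lost, at a fold of 2.04 and 2.05 in WT. Of 43 basic helix-loop-helix factors, ASCL2 was gained, and NEUROD6 and NHLH2 were among those lost. HOXB2, HOXC11, FOXC1 and NHLH2 were also lost in the equal-number setting, while PAX8, PROX2 and NEUROD6 were not.

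Lost promoters were counted in more of the lists. Of 101 neurotransmitter receptor genes 48 were open in all 4, 7 were lost (6.93%) and none was gained, beside 1.08% lost over all genes. Among the 7 were the GABA receptor subunits GABRA2 and GABRB2, the glutamate receptor genes GRIN1 and GRM7, and the adrenoceptor ADRA1A. GABRA2 had folds of 3.96 and 3.91 in the WT replicates and GABRB2 2.84 and 2.88. In the equal-number setting 3 of the 7, ADRA1A and GABRA2 among them, were lost. Potassium channels had 4 lost of 93 (KCNF1, KCNK9, KCNN1 and KCNQ1) and imprinted genes 4 of 38, or 10.5% (IGF2, KCNQ1, KCNK9 and MKRN3), with none gained. Axon guidance genes had 4 lost of 67, namely EFNA5, EPHB2, PLXNB1 and PLXNB2, and none gained. Zinc finger genes of the ZNF series had 7 lost of 496 (1.41%) and none gained. Sodium, calcium and TRP channels had 3 lost of 67, namely CACNA1D, SCN1A and TRPM5, the last of which shares its promoter peak with KCNQ1. WNT pathway genes had LRP5 and WNT3A lost of 51, ligands of the BMP, TGF-beta and FGF families FGF3 and FGF14 of 52, and cadherins and neuronal adhesion genes CADM4 and CDH20 of 78. Of 118 cytokine and chemokine genes, IL16 was gained and IL19 lost. Each of these counts is small, and none was tested. In the equal-number setting WNT3A, KCNQ1, MKRN3, EFNA5, PLXNB2, CACNA1D and TRPM5 and 3 ZNF genes were again lost. The other channel, imprinted, axon guidance, WNT, ligand, adhesion and cytokine genes just named as lost were then closed in all 4 libraries or open in some of them.

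Over all genes, the strongest lost promoter region lay at F11, which encodes coagulation factor XI, with folds of 5.05 and 6.35 in WT and 5.04 in Y641F replicate 2. OR52N2, an olfactory receptor gene, had 5.39 and 5.12, CCDC30 4.51 and 6.73, and UBR7, a ubiquitin ligase gene, 4.66 and 5.72. PAK6, a p21-activated kinase, had 4.95 and 4.61, CTNNA3, an alpha-catenin of the heart, 4.71 and 4.70, and ACTC1, cardiac actin, 4.66 and 4.32. Of the 15 lost promoter regions of highest fold percentile, 11 had no peak in any Y641F or A677G library. The others were F11, OR52N2, SP140L and STPG1. Counted by gene over all annotated starts, the promoters of CCDC30, UBR7, PAK6, CTNNA3 and STPG1 were not lost. Those of F11, OR52N2, SP140L and ACTC1 were.

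In the equal-number setting more genes had a gained promoter (100, 0.533%) than a lost one (90, 0.48%). Promoter regions, counted in place of genes, still had fewer gained (156, 1.06%) than lost (172, 1.17%). Of the list genes gained there and not with all peaks, KCNK2, FLRT2, PHLDA2, GPR151, GPR153 and ZNF236 had a peak in both WT libraries. KCNK2, a two-pore potassium channel, had folds of 3.16 and 2.85 in WT and 3.17 and 3.59 in H689A/F667I. FLRT2, a neuronal adhesion protein, had 2.94 and 2.82 in WT and 3.12 and 3.96 in H689A/F667I. FOXA2, a forkhead factor of endoderm, had a peak in WT replicate 2 (3.10) and in both H689A/F667I libraries (3.00 and 2.84). KCNK2 and FLRT2 belong to a list of transcripts named for the H689A/F667I line in the source article. Of the 95 genes of that list measured here, 82 were open in all 4 libraries, 1 (EPPK1) was lost and none was gained with all peaks, a lost share of 1.05% beside 1.08% over all genes. The list was chosen in the same lines, so it is not independent evidence.

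In kept regions the fold itself could be compared, since each library had a value. The limma test with Benjamini-Hochberg adjustment called no region higher and none lower among 32019 (0.0% each), and the lowest adjusted p was 0.434. In simulated data with the same spread at every region, it recovered 52 of 200 planted log2 changes of 0.5 (26%). It recovered all 200 changes of 1. Smaller differences could thus be missed. At an unadjusted limma p under 0.05, 1892 regions were higher (5.91%) and 1309 lower (4.09%) in H689A/F667I. The split depended on the scaling, with 1443 higher and 1517 lower after quantile normalisation, and 859 higher and 2604 lower without centring. Kept peaks were also narrower in H689A/F667I, with a median width of the strongest peak of 799 and 788 bp in WT and 631 and 644 bp in H689A/F667I. Among the 1892 regions, 86.6% had a narrower strongest peak in H689A/F667I, against 77.2% of all kept regions and 58.0% of the 1309. A broad peak's fold is taken over its whole width, so fold and width cannot be told apart in these lists.

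The SIX4 promoter, at chr14:60721142-60724552, had the lowest p of the regions with higher fold. SIX4 is a homeobox factor of muscle and kidney development. Its strongest peak had a fold of 2.79 and 2.98 in the WT replicates and 4.56 and 4.57 in the H689A/F667I replicates. The log2 difference was 0.73 ± 0.11 (SE), with an adjusted p of 0.434 in limma. In a fit limited to the 10546 kept regions with −log10 q of at least 5 in every library, it was the single region called. Its log2 difference there was 0.67 ± 0.07 (SE), with an adjusted p of 0.0333 in limma. The WT peaks were 3402 and 3193 bp wide and the strongest H689A/F667I peaks 380 and 434 bp. The Y641F and A677G replicates had folds of 3.63 to 4.69. Averaged over the width of all peaks in the region, the folds were 2.79 and 2.98 in WT and 3.00 and 3.04 in H689A/F667I. SDC2, which encodes the heparan sulfate proteoglycan syndecan 2, had promoter folds of 3.76 and 3.59 in WT over 2095 and 2057 bp, and 5.83 and 5.82 in H689A/F667I over 418 and 459 bp. MARCKSL1, a regulator of actin, showed the same pattern of width, with folds of 2.32 and 2.30 in WT over 1413 and 2029 bp, and 3.29 and 3.00 in H689A/F667I over 340 and 501 bp. In an intron of L3MBTL4, a gene of the MBT family, widths were closer, with folds of 3.94 and 3.92 in WT over 432 and 332 bp and 6.03 and 6.47 in H689A/F667I over 361 and 267 bp. Its log2 difference was 0.73 ± 0.11 (SE), with an adjusted p of 0.434 in limma. Its width-weighted folds were the same as those of the strongest peaks. That holds by definition where a library has a single peak in a region, so it is no check on width.

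At EGFR, the receptor of epidermal growth factor, the promoter peak had folds of 4.69 and 4.43 in WT and 6.47 and 6.48 in H689A/F667I, a log2 difference of 0.57 ± 0.11 (SE) with an adjusted limma p of 0.434. Its width was 787 and 807 bp in WT and 356 and 307 bp in H689A/F667I. Its fold was 6.38 and 6.06 in the A677G replicates, 5.16 in Y641F replicate 2, and Y641F replicate 1 had no peak. The start shared by FASTKD3 and MTRR had folds of 5.39 and 5.60 in WT over 1200 and 1033 bp. In H689A/F667I they were 8.44 and 7.99 over 669 and 832 bp. The width-weighted folds were the same, which again is no check on width. In the other direction, an intron of FNDC3B had 6.46 and 5.67 in WT over 224 and 232 bp. In H689A/F667I its folds were 3.15 and 3.39 over wider peaks of 866 and 443 bp. An intron of KSR2, a scaffold of the Ras pathway, had 4.87 and 5.2 in WT over 260 and 389 bp. In H689A/F667I it had 2.94 and 3.08 over 304 and 345 bp. None of these differences passed the adjusted threshold.

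**Figure D5:**
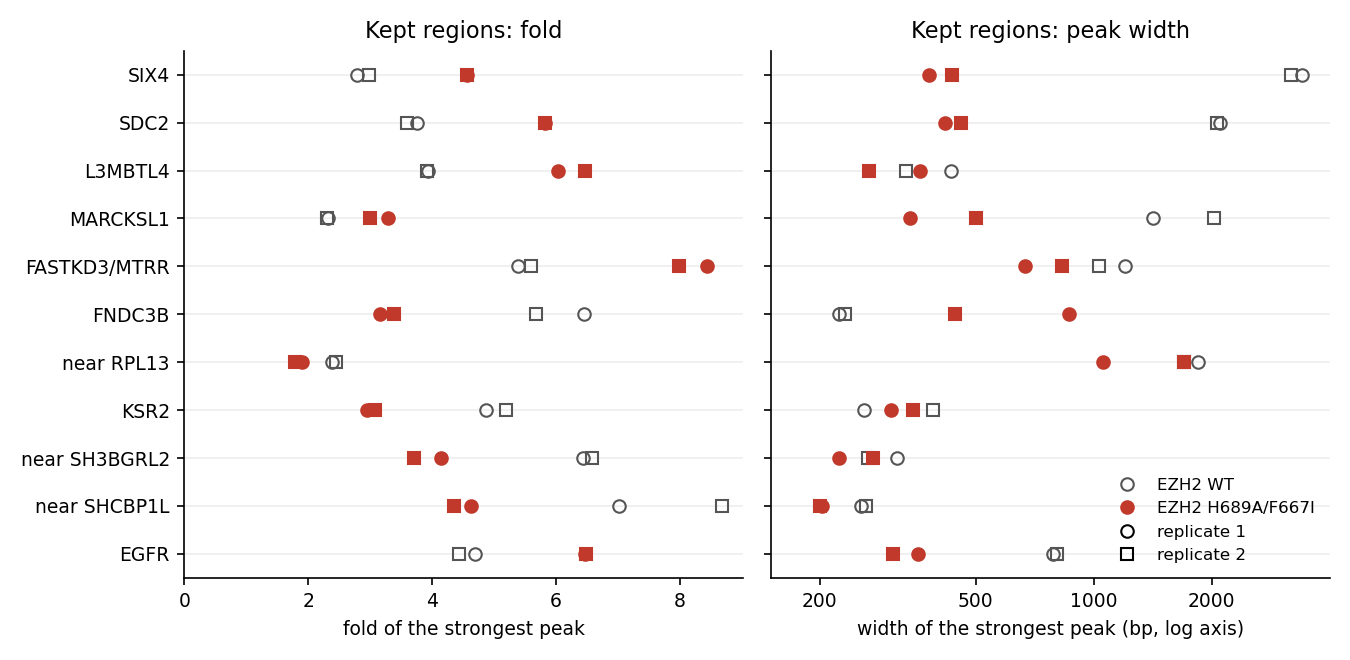
Fold (left) and width in bp on a log axis (right) of the strongest peak in the 10 kept regions of lowest p, 5 in each direction, and at the EGFR promoter. Open points are WT and filled red points H689A/F667I, with circles for replicate 1 and squares for replicate 2. The upper 5 and EGFR have higher fold in H689A/F667I, and SIX4 and MARCKSL1 also have strongest peaks of 340 to 501 bp there against 1413 to 3402 bp in WT.

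Differences in fold at kept promoters of the fixed lists were small. The median log2 difference in fold was 0.043 over 12604 kept promoter regions, of which 804 (6.38%) were higher and 166 (1.32%) lower at an unadjusted p under 0.05. Quantile normalisation gave a median of 0.028 with 602 higher and 238 lower. Without centring the median turned negative, at -0.023, with 340 higher and 457 lower, so the direction over all promoters depended on the scaling. In 33 kept promoter regions of HOX genes the median was 0.129 and 8 (24.2%) were higher at that level, among them HOXA4, HOXA9 and HOXD3. HOXA9 had folds of 1.88 and 1.95 in WT and 2.23 and 2.16 in H689A/F667I, a log2 difference of 0.26 ± 0.05 (SE) with an adjusted limma p of 0.434. The count of 8 fell to 3 after quantile normalisation and to 2 without centring, while the median stayed above 0 at 0.061 and 0.062. The strongest peaks of the HOX regions were narrower in H689A/F667I in 25 of 33 (75.8%), beside 82.6% of all kept promoter regions, and their median log2 difference in width was -0.314 beside -0.209. Forkhead promoters had a median of 0.167 over 39 regions, and 0.101 to 0.126 under the other scalings and the width-weighted fold. Their strongest peaks were narrower in 33 of 39 (84.6%), with a median log2 difference in width of -0.544. Higher medians in fold were not particular to HOX and forkhead genes. AP-1 and immediate early genes had 0.142 over 29 regions, with 3 (10.3%) higher. SOX, TBX and GATA genes had 0.087 over 27 regions, with 6 (22.2%) higher. After quantile normalisation this median was 0.054, with 2 higher and 1 lower. Without centring it was 0.021, with 1 higher and 1 lower. Medians of some other lists lay below 0, at -0.018 for potassium channels and -0.029 for imprinted genes. In the transcript list of the source article the median was 0.072 over 104 regions, with 13 higher (12.5%) and 1 lower, and without centring it was 0.006 with 4 higher and 2 lower. No member of any list passed the adjusted threshold.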

How the data were processed

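The data were ATAC-seq peak lists of EZH2 WT, H689A/F667I, Y641F and A677G lines, 2 libraries each. The authors trimmed reads with Trim Galore 0.6.5, aligned them to hg38 with BWA 0.7.17, removed duplicates and called broad peaks per library with MACS2 2.2.7.1. The deposited lists give the fold of each peak as a ratio of pileup to local background, and −log10 values of p and q. The deposited score column was not used. Correction for the Tn5 offset, mitochondrial reads and read depth are not given in the sources used here, and without reads the authors' DiffBind test could not be run, so peak overlap took its place.

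No chromosome 1 to 22 peak ran past a chromosome end of the hg38 reference. Peaks sharing at least 1 bp were merged, and regions were placed against GENCODE 44. The fold of a library in a region was that of its peak with the highest −log10 p. Kept regions were tested on log2 fold, centred on the median of each library, with limma 3.58.1 in R 4.3.3 (trend, Benjamini-Hochberg adjustment over all kept regions, threshold 0.05), checked on simulated data. Other steps used Python 3.11.15, pandas 2.3.3, NumPy 2.4.6, SciPy 1.17.1 and matplotlib 3.10.9. Sequences were read from hg38, whose copy here is not soft-masked, so the planned repeat share was not computed.

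Named were the 15 gained promoter regions and the 10 other gained regions of highest mean percentile of fold, the 10 such regions also gained in the equal-number setting and closed in Y641F and A677G, genes with 3 or more gained regions, the members of the fixed lists that were gained or lost, the 15 strongest lost promoter regions and the 5 kept regions of lowest p per direction. The remaining genes with a gained promoter, EZH2, EGFR and the chromosome 13 stretch were named after their values were seen. The classes and gene lists were chosen with earlier results of these data known. Some list members and sequences are not reported here. Alternatives varied the peaks used, the overlap, the merging distance, the promoter window, the scaling and the libraries.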

Additional observations from a re-analysis of the deposited data

How the results depend on the processing

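Of 91 alternative values of 11 results, 48 stayed within the spread or 1.5 times of the value reported and 43 moved. The 48 include limma counts of 0 that stayed 0. Only the log2 ratios of peak number and covered length could change sign, and neither did. The equal-number setting gave 3055 lost and 1812 gained regions, an 8.61% promoter share of gained regions, and 90 genes with a lost and 100 with a gained promoter. Taking the same number after restriction to chromosomes 1 to 22 gave 3078, 1806, 8.64%, 92 and 99. Both thus turned the balance at gene promoters over. With peaks of −log10 q of at least 5 there were 10546 kept, 3690 lost and 140 gained regions, promoter shares of 31.2% for lost and 16.4% for gained regions, and 1091 genes with a lost promoter, and the log2 ratio of peak number was -0.6338 and that of covered length -0.7486. Requiring peaks to cover at least 50% of a region gave 19099 kept regions and an 11.2% promoter share of lost regions. That share was 5.34% after merging peaks under 1 kb apart and 4.86% with promoters within 500 bp. The causes were not tested. The cover and merging settings could not be applied to promoters counted by gene.

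Leaving out each library in turn gave 10632 (without H689A/F667I replicate 1) to 18513 (without WT replicate 2) lost regions, 1447 (without WT replicate 2) to 5824 (without H689A/F667I replicate 1) gained regions, promoter shares of lost regions of 4.85% to 6.75%, 374 to 412 genes with a lost and 60 to 124 with a gained promoter. A class then rests on fewer libraries, so it grows by construction.

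In kept regions the replicate block left 0 higher and 0 lower regions at an adjusted limma p under 0.05, as did quantile normalisation, no centring, the width-weighted fold and leaving out a library. Same-numbered libraries shared only a number (correlation of their deviations 0.00141), so they were not treated as paired. Among the 10546 kept regions with −log10 q of at least 5 in every library, 1 was higher, the SIX4 promoter (adjusted p = 0.0333), whose difference in width is given above. The median difference before centring was -0.05 on the log2 scale. Peak lists hold no depth, so a closed region may lie just under the caller's threshold.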
